A study of Arabidopsis thaliana with 24 samples.

Results

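The genes described here are 148 Arabidopsis thaliana genes to which the array's annotation gives the Biological Process term apoptosis, most of them intracellular immune receptors of the plant. A member was kept where its probe set named 1 gene, and the gene AT2G46240 was left out by the rule of choice. Of 164 probe sets that carry the term, 11 name several genes and 4 have gene identifiers that disagree, which leaves 149 and, without AT2G46240, the 148 members, out of 21154 genes with a probe set of their own on the array. By the other terms of the annotation, 90 members are TIR-annotated, meaning here that they carry the term transmembrane receptor activity or innate immune response. Another 46 carry a nucleotide-binding term without those terms. The remaining 12, called members without a nucleotide-binding term, carry neither kind. These classes follow the terms and not the domains of the proteins. RefSeq lists 2 members (AT4G14610 and AT5G40920) as pseudogenes. Symbols follow RefSeq, which gives 39 members a symbol other than the locus number.

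Transcript levels were measured on 24 Affymetrix arrays, 6 in each of 4 groups. All plant material was wild type, of the Col-0 accession, non-transgenic and kept in the dark on nutrient agar. The cell groups were undifferentiated cultured cells derived from hypocotyls and the seedling groups were whole etiolated seedlings, and each material was either flown in sealed BRIC canisters or held on the ground at unit gravity. Flown dishes were fixed in orbit after 12 days and 21 hours, and an age of 7 days, whose relation to the time in orbit is not stated, is given for all samples. The question put to the data is which of these transcripts differ after spaceflight, in a material without organs and in a seedling. Dishes of a group are not stated to be independent cultures, and the p-values therefore reflect the spread among these dishes, part of which may be technical. For flight against ground in cells that spread was pooled over all probe sets. In cultured cells 4 arrays a group came from 1 canister and 2 from another, and in seedlings 5 came from 1 canister and 1 from that same second canister.

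Most members encode nucleotide-binding leucine-rich-repeat receptors, the proteins with which a plant cell senses pathogen effectors inside the cell. One branch carries a TIR domain at the amino terminus and signals through EDS1, another carries a coiled coil, and helper receptors of the ADR1 family act downstream of both. Activation often ends in the hypersensitive response, a local death of the infected cells, which is how receptors came to be annotated with a term for programmed cell death. The members without a nucleotide-binding term belong to cell death by other routes. BAG1, BAG2, BAG3 and BAG4 are co-chaperones with a BAG domain, BI1 is the Bax inhibitor of the endoplasmic reticulum, ATDAD1 and DAD2 are named as defenders against death and belong to the oligosaccharyltransferase, PUB17 is a U-box ubiquitin ligase needed for hypersensitive death, and DPL1 is a lyase of long-chain base phosphates.

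With 6 arrays a group the precision is limited by their number, and the arrays differed in how many probe sets could be measured. Background was the 95th percentile, on the array in question, of 27 control probe sets for bacterial sequences, and a gene is called measured in a group where it was above that level on at least 4 of 6 arrays. The share of all probe sets above background ranged from 9.94% to 76.7% in flight cells, 11.5% to 23.1% in ground cells, 56.6% to 66.7% in flight seedlings and 39.0% to 61.5% in ground seedlings. The value of 76.7% belongs to replicate 5 of the flight cells, and the highest among the other flight cell arrays was 29.4%. The median correlation between replicate arrays was 0.304 in flight cells and 0.315 in ground cells, against 0.890 and 0.813 in flight and ground seedlings. Of 5 shoot epidermis markers 4 were measured in either seedling group and none in either cell group, and of 5 root markers 1 was measured in flight seedlings and none in ground seedlings. Of 3 plastid greening markers with a probe set of their own, 3 were measured in flight seedlings and 0 in ground seedlings. For 3 markers of dividing cells the counts were 2 and 0. No marker of these last 2 lists was measured in cells.

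Almost none of the receptors could be measured in cultured cells, and in seedlings a smaller share of the members than of all genes could be. In flight seedlings 47 of 148 members (31.8%) were measured and in ground seedlings 27 (18.2%), where 58.4% and 44.6% of all genes were. In cells the counts were 2 members in flight and 4 on the ground (1.35% and 2.70%), where 8.32% and 7.13% of all genes were measured. Of the 12 members without a nucleotide-binding term, 11 were measured in flight seedlings and 8 in ground seedlings. Of the 90 TIR-annotated members the counts were 22 and 10, and of the 46 other nucleotide-binding members 14 and 9. No member was above background on all 24 arrays, and the highest number was 22 arrays, for PUB17. The members measured in cells were PUB17 and BAG4 in both conditions, with BAG3 and LAZ5 added on the ground. The 5 members above background on none of the arrays were AT1G31540, RLM1, RPP1, AT5G18370 and the pseudogene AT4G14610. Leaving out replicate 5 of the flight cells lowered the number of members above background on at least 1 flight cell array from 93 to 38.

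**Figure D1:**
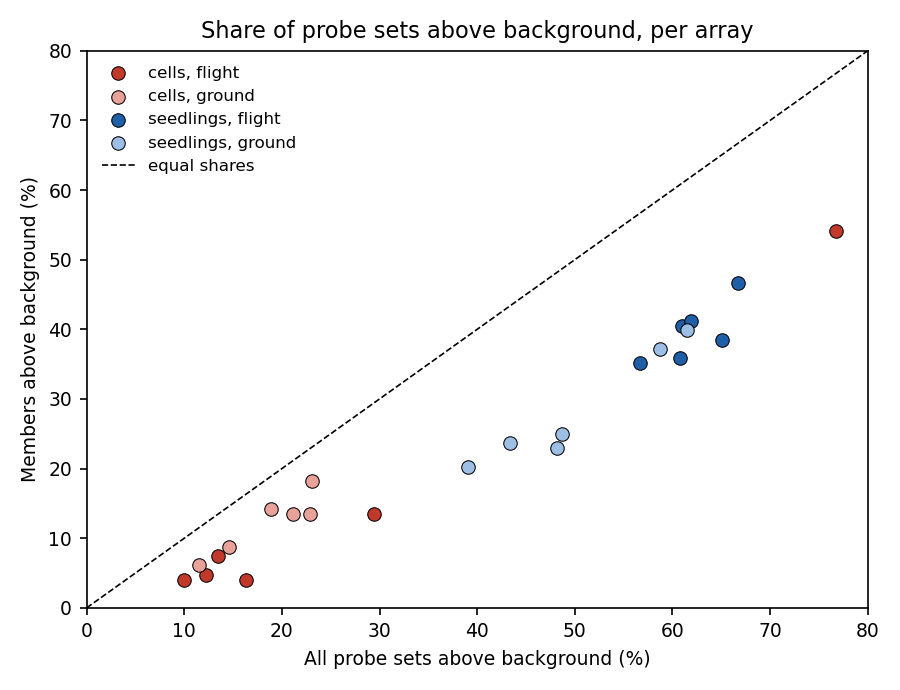
Share of the 148 members above background (vertical axis, percent) against the share of all 22746 probe sets (horizontal axis, percent), 1 point per array, coloured by group. Every array lies below the line of equal shares. The flight cell array at 76.7% on the horizontal axis is replicate 5, with 54.1% of the members.

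In seedlings, 26 members were measured in both groups, and 14 of them were above background on all 12 seedling arrays. They divide into 9 TIR-annotated members, 9 other nucleotide-binding members and 8 of the 12 without that term. None of the 26 was called for flight against ground. The differences of the 25 reported singly ran from -0.75 to 0.58 on the log2 scale. Over all 26, 13 were higher and 13 lower in flight, and 0 had an unadjusted p under 0.05 in limma, against 449 of 9297 genes measured in both seedling groups. Members of this set are named here because they were measured, after their values had been seen.

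Among the receptors of known function, RPS4, a TIR receptor for bacterial effectors, lay between 8.95 and 10.36 in flight seedlings (median 9.52) and between 8.86 and 10.17 on the ground (median 9.21), on the log2(intensity + 16) scale used for all levels below. The groups overlapped over most of their range, and the difference of 0.23 ± 0.32 (SE) had an adjusted p of 0.858 in limma. RRS1, its partner in a receptor pair and its neighbour on chromosome 5, was above background on 5 flight arrays and 2 ground arrays, with medians of 8.21 and 7.17. Its difference was 0.63 ± 0.37 (limma, adjusted p = 0.685).

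ZAR1, a coiled-coil receptor that assembles into a membrane resistosome, had 9.58 ± 0.28 (SD, n = 6) in flight seedlings and 9.73 ± 0.37 on the ground, a difference of -0.15 with a 95% interval of -0.73 to 0.44. The helper receptors ADR1-L1 and ADR1-L2 were above background on all 12 seedling arrays. ADR1-L1 had 9.74 ± 0.47 in flight and 9.53 ± 0.68 on the ground, and ADR1-L2 had 9.53 ± 0.37 and 9.54 ± 0.77. For both helpers the difference was smaller than the spread within either group. Their relative ADR1 was measured in flight seedlings, on 5 of 6 arrays, and was above background on 2 ground arrays, with medians of 7.56 and 7.11.

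CSA1 and CHS3 are neighbours that work as a receptor pair, and CHS3 mutants are sensitive to chilling. CSA1 had a median of 9.20 in flight and 8.94 on the ground, where 1 array lay far below the others at 6.13. CHS3 had 9.39 ± 0.26 in flight and 8.95 ± 0.74 on the ground. Both had the higher mean in flight, by 0.41 ± 0.52 and 0.44 ± 0.35, and neither passed the test in limma (adjusted p = 0.833 and 0.747). Without the low ground array, replicate 1, the difference for CSA1 was -0.10.

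The remaining receptors of known function were not called either. RPP13, a receptor for downy mildew, had 8.10 ± 0.64 and 8.03 ± 0.62. VICTR, a TIR receptor found through the response of roots to a small molecule, had 8.72 ± 0.51 and 8.78 ± 0.66. LAZ5, a TIR receptor whose loss suppresses the cell death of acd11 mutants, had 7.48 ± 0.46 and 7.89 ± 1.20. RPS2, which guards RIN4, was above background on all 6 flight arrays and on 2 ground arrays, with 7.52 ± 0.53 and 7.12 ± 0.89. In all, 10 of the 33 receptors of known function among the members were measured in both seedling groups, 4 (ADR1, RPS2, RPP5 and RRS1) in flight seedlings alone, and 19 in neither.

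Of the 12 members without a nucleotide-binding term, 8 were measured in both seedling groups. BAG3 lay between 12.30 and 13.04 in flight seedlings and between 12.81 and 13.01 on the ground, a difference of -0.12 with a 95% interval of -0.65 to 0.41. PUB17 had 12.23 ± 0.20 in flight and 12.15 ± 0.40 on the ground, and DPL1 10.98 ± 0.35 and 10.93 ± 0.39. ATDAD1 had 10.14 ± 0.28 and 10.13 ± 0.43. For all 4 genes the groups overlapped.

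BAG1 was the member of the 26 with the highest difference, 0.58 ± 0.35, with flight arrays between 10.62 and 11.17 and ground arrays between 8.87 and 10.85 (limma, adjusted p = 0.696). Without the lowest ground array, replicate 1, its difference was 0.29. BAG4 had 10.20 ± 0.23 and 9.91 ± 0.28. BI1 had 8.96 ± 0.37 in flight and 9.55 ± 1.13 on the ground, and its ground arrays ran from 7.85 to 11.25, so that the flight arrays lay inside their range.

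**Figure D2:**
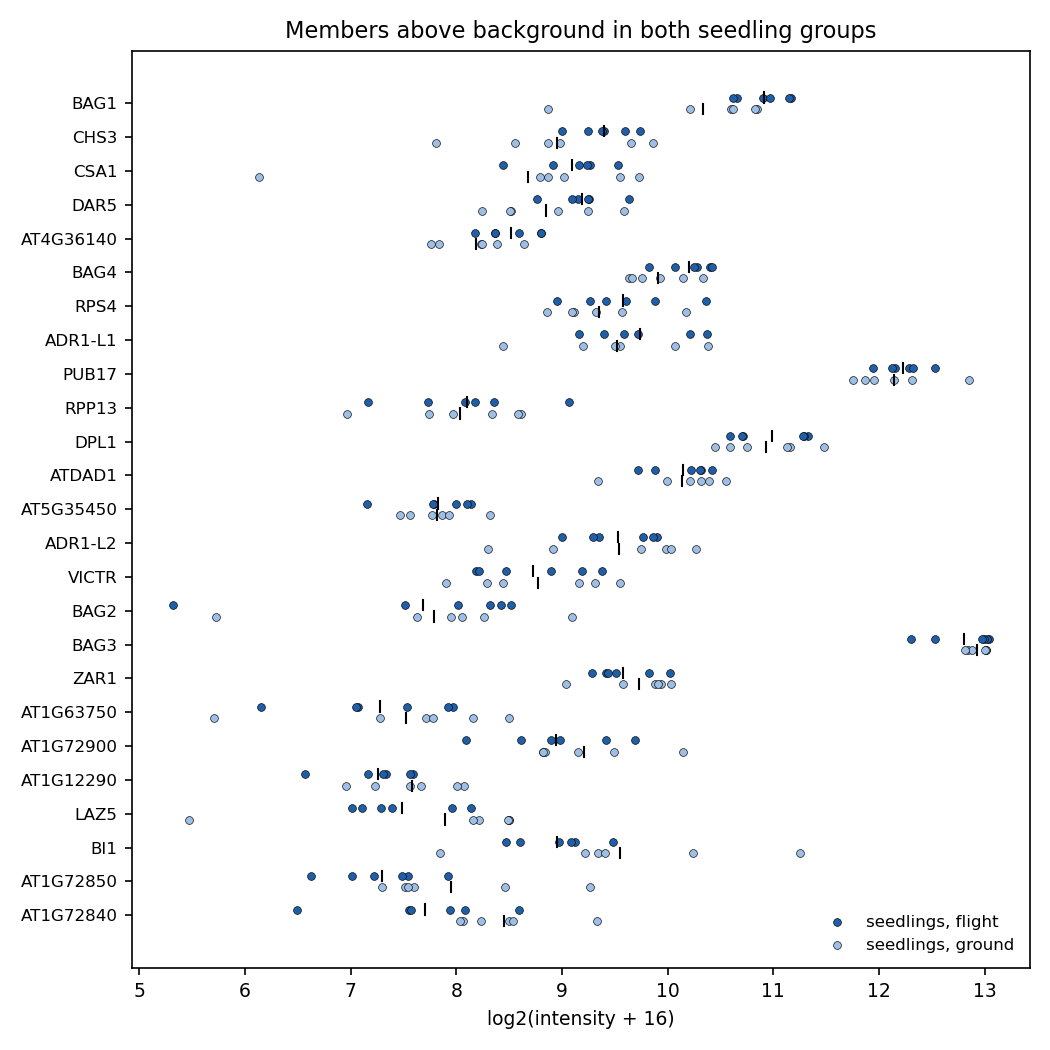
The 25 members reported singly of the 26 measured in both seedling groups, 1 row per gene, ordered by the difference of the group means. Each point is 1 array (n = 6 per group) on the log2(intensity + 16) scale and the short bar is the group mean. Within a row the flight and ground points overlap for all 25 genes, and rows are not to be compared with each other, since each is a different probe set.

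Over all 148 members in seedlings, no member was called for flight against ground at an adjusted p under 0.05 (limma, Benjamini-Hochberg over 22746 probe sets), where 0.0176% of all probe sets were. At an unadjusted p under 0.05, 1 member was higher and 8 were lower, where 3.34% of all probe sets were higher and 4.67% lower, and all 8 were TIR-annotated. Of these 9 members, AT1G63740 and AT5G47250 were measured in a seedling group. No member had flight and ground arrays without overlap, where 0.391% of all probe sets were higher and 0.264% lower in that way. By direction alone 66 members were higher and 82 lower in flight, with a median difference of -0.12 against -0.02 over all genes. Among the 45 members left after dim probe sets were removed, 26 were higher and 19 lower, with a median of 0.05 against 0.10 over all genes left. Probe sets passed that filter more through flight arrays, whose background was lower, which by itself favours higher values in flight. The TIR-annotated members had a median of -0.22, with 35 higher and 55 lower. In the larger canister alone, with 5 arrays a group, the median of the members was -0.10.

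The member with the smallest p was AT1G63740, a TIR-annotated gene. Its flight arrays lay between 6.24 and 7.62 (median 6.79) and its ground arrays between 7.31 and 8.46 (median 7.96), above background on 3 and 4 arrays. The groups overlapped only at the edge and every flight array lay below the ground mean, and the difference of -1.03 ± 0.33 had an adjusted p of 0.469 in limma. AT5G38850 had 5.84 ± 1.15 in flight and 7.33 ± 0.86 on the ground, above background on 1 and 2 arrays (limma, adjusted p = 0.519). Of the other members with low p, AT3G25510, AT1G31540 and AT1G17615 were above background on no seedling array. Their means were 4.41 ± 0.22, 5.39 ± 0.76 and 4.53 ± 0.16 in flight against 5.21 ± 0.41, 6.66 ± 0.81 and 5.97 ± 1.29 on the ground. No fold is given where neither group was above background.

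In the other direction AT5G47250, a nucleotide-binding member without TIR terms, lay between 6.24 and 7.93 in flight (median 7.01) and between 5.06 and 7.20 on the ground (median 6.09). Above background it stood on 4 arrays of flight and 1 of ground seedlings, and every flight array lay above the ground mean. The difference of 1.06 ± 0.41 had an adjusted p of 0.552 in limma. The next smallest p in this direction belonged to AT1G51480, which RefSeq also lists as RSG1, AT5G46450, RRS1 and AT5G58120. AT1G51480, AT5G46450 and AT5G58120 were above background on no ground array and on 1, 2 and 2 flight arrays.

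The flight seedling arrays had the lower background, with a median of 94.6 intensity units against 211 on the ground, and more members were above it. On single arrays 35.1% to 46.6% of the members were above background in flight and 20.3% to 39.9% on the ground. There were 21 members measured in flight seedlings alone and 1, AT1G63740, on the ground alone. Of those 21 members 17 had the higher mean in flight, a direction favoured by picking them through their flight arrays. For 1 of them (AT5G47250) the unadjusted p was under 0.05 in limma. The part of the background in these counts was not tested.

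In cultured cells no member was called for flight against ground either (0.0352% of all probe sets were, all of them higher in flight). At an unadjusted p under 0.05, 8 members were lower and 0 higher, where 2.73% of all probe sets were lower and 3.03% higher. None of these 8 was measured in either cell group. No member had cell groups without overlap, where 0.141% of all probe sets were higher and 0.127% lower in that way. By direction alone 57 members were higher and 91 lower, with a median difference of -0.24 against 0.01 over all genes. Removing dim probe sets left 5 members in cells, 1 higher and 4 lower. The median was -0.28 for the TIR-annotated members, -0.37 for the other nucleotide-binding members and 0.20 for those without the term. Within the canister of 4 arrays a group the median of the members was -0.24, and within that of 2 arrays a group it was -0.35, the latter chosen after the data were seen. In this fit every probe set took the same standard error, 0.82 on the log2 scale. A member's p for flight in cells therefore does not use its own spread, and the smallest p marks the largest difference.

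AT1G72870, a TIR-annotated gene, had the smallest p. It lay between 5.62 and 8.85 in flight (median 6.60), below background on every array, and between 7.47 and 10.60 on the ground (median 9.47), above background on 3 arrays. All 6 flight arrays lay below the ground mean and the groups overlapped (limma, adjusted p = 0.705). SNC1, a TIR receptor whose gain of function makes plants autoimmune, had 6.09 ± 0.81 in flight and 8.09 ± 1.20 on the ground (limma, adjusted p = 0.844). ADR1 had 6.46 ± 1.14 and 8.38 ± 1.64, and AT1G58410 had 7.10 ± 1.10 and 8.99 ± 1.16. SNC1 was above background on no cell array, and ADR1 and AT1G58410 on 1 ground array each. AT3G04220 had 7.79 ± 2.13 and 9.65 ± 0.72, above background on 1 and 2 arrays. RLM1, which takes part in resistance to blackleg disease, had 6.50 ± 0.61 and 8.19 ± 1.43 without being above background on any array.

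The members with the smallest p in the other direction included AT2G16870, AT5G45230, AT1G69550 and DAD2. AT2G16870 had 8.46 ± 1.33 in flight and 6.84 ± 1.13 on the ground, and AT5G45230 had 8.92 ± 0.77 and 7.32 ± 1.27, each above background on 1 flight array. For both genes that array was replicate 5, whose background was the lowest of the flight cell arrays. DAD2 had 9.02 ± 0.63 and 7.77 ± 1.76, above background on 2 and 1 arrays, a difference of 1.25 ± 0.82 (limma, adjusted p = 0.934). The groups overlapped for each of these 4 genes.

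**Figure D3:**
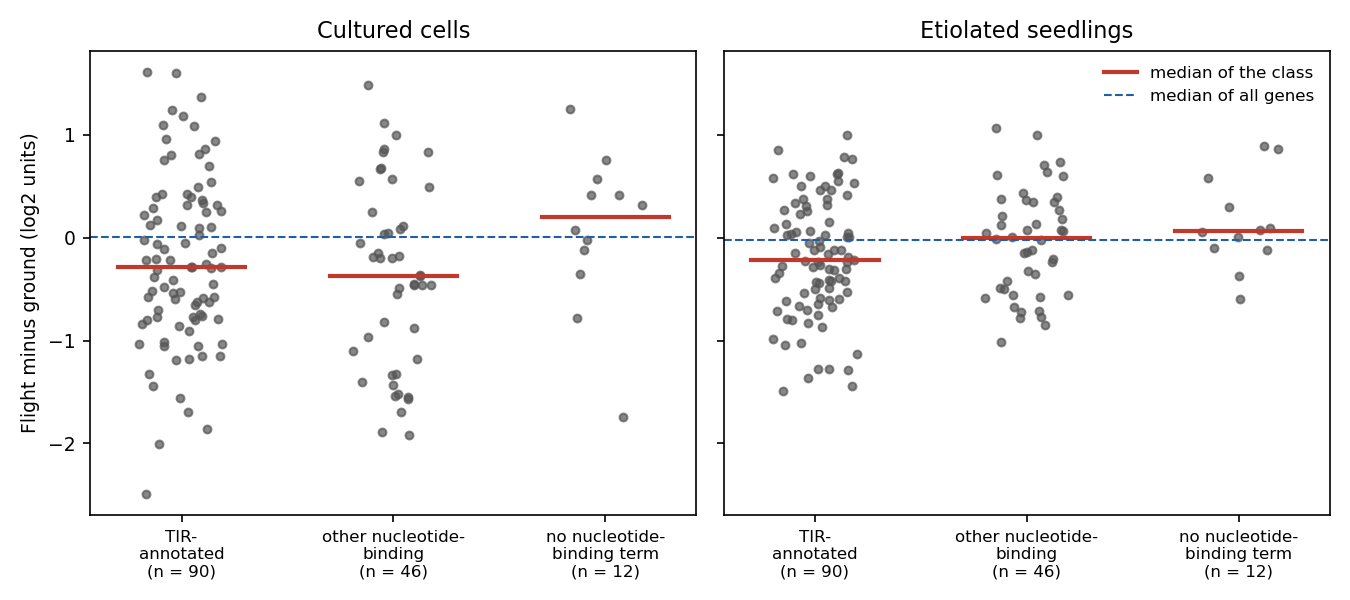
Flight minus ground difference of the group means in log2 units for the 148 members in cultured cells (left) and etiolated seedlings (right), 1 point per gene, split by the 3 annotation classes. The red bar is the median of the class and the dashed line the median of all 21154 genes, 0.01 in cells and -0.02 in seedlings. In both panels the bar of the TIR-annotated class lies below the dashed line, and no point was called.

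The flight difference in cells was set against that in seedlings by an interaction term in 1 fit of the 4 groups. No member was called, and no probe set of the array was (0.0%). At an unadjusted p under 0.05 the difference was lower in cells for 5 members (AT5G18400, ADR1, AT1G58410, DAR5 and CW9) and higher for 1 member that is not reported singly, where 2.95% of all probe sets were lower and 3.68% higher. AT5G18400, which RefSeq also lists as DRE2, had 7.14 ± 1.29 in flight cells and 8.89 ± 0.72 in ground cells, and 8.03 ± 0.41 in flight seedlings and 7.16 ± 1.49 in ground seedlings. By direction alone 53 members were lower in flight in both materials, 28 were higher in both, 38 were lower in cells and higher in seedlings, and 29 the reverse.

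Cells and seedlings differed for more members than flight and ground did, but few of those differences were between measured levels. On the ground 58 members were called higher and 6 lower in cells than in seedlings (limma), where 27.6% of all probe sets were higher and 10.5% lower. In flight the counts were 53 and 8, where 32.9% and 12.5% were. Of the 58 members called higher on the ground, 1 (LAZ5) was measured in cells, 23 were above background on no cell array, and 19 on no array of either group. Of the 53 in flight none was measured in cells. The mean background was 9.90 on the log2 scale in ground cells and 7.62 in ground seedlings. The part of the background in these calls was not tested. With quantile normalization the split was 11 higher and 8 lower on the ground and 8 higher and 10 lower in flight. That scaling moved the median of all genes from 0.75 to 0.12 on the ground and from 0.73 to 0.06 in flight. Among the 20 members above background on at least 12 of the 24 arrays (this filter was added once values were known), the median turned to -0.56 on the ground and -0.64 in flight, against -0.68 and -0.76 over all genes that passed. Of those 20 members 2 were called higher and 5 lower on the ground, and 1 and 6 in flight. Members passed this filter mostly through seedling arrays, whose background was lower, which by itself favours lower values in cells. With the canister as a fixed block the counts were 12 and 0 on the ground and 10 and 1 in flight. Such a block sets the materials against each other only through the 1 canister that held both. Within the 1 canister that held both materials, 2 cell arrays and 1 seedling array in each condition, the median difference of the members was 1.07 on the ground and 1.12 in flight, a value chosen after the data were seen and not tested. In bulk samples fewer cells of a type and less RNA per cell cannot be told apart.

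The 6 members called lower in ground cells were all measured in ground seedlings. None of the 6 was called with the canister as a fixed block. Within the shared canister all 6 were lower in the cell arrays in either condition, by between -1.13 (PUB17) and -4.03 (BAG3) on the ground. Groups without overlap were found for 5 members higher and 3 lower in ground cells, where 4.95% and 4.76% of all probe sets were, and for 9 and 3 in flight cells, where 8.44% and 8.18% were. BAG3 lay between 7.52 and 11.09 in ground cells and between 12.81 and 13.01 in ground seedlings, with no overlap, and the difference was -3.10 ± 0.64 (limma, adjusted p = 0.000304). In flight BAG3 lay between 6.25 and 10.60 in cells and between 12.30 and 13.04 in seedlings, a difference of -3.77 ± 0.64. PUB17 was above background on 5 cell arrays in either condition and was lower there, by -1.68 ± 0.62 on the ground and -1.87 ± 0.62 in flight, again with no overlap. The call for PUB17 on the ground was lost without replicate 2 of the cells (difference -1.14) and without replicate 1 or replicate 6 of the seedlings, and in flight without replicate 3 of the cells (difference -1.40).

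BAG1 had 7.54 ± 1.66 in ground cells and 10.33 ± 0.75 in ground seedlings, and 7.95 ± 1.76 and 10.91 ± 0.23 in flight. It was called lower in cells in either condition (limma, adjusted p = 0.00194 and 0.000768). It was above background on 1 of 6 cell arrays in each, which in flight was replicate 5. With the cell arrays raised to background the seedling mean still stood above the cell mean, by 0.31 on the ground and 0.81 in flight. DPL1 was above background on no ground cell array and was at least 2.04-fold lower there than in ground seedlings (limma, adjusted p = 0.00506). BAG4, with 9.90 ± 1.92 in ground cells and 9.91 ± 0.28 in ground seedlings, showed a difference of -0.01 with a 95% interval of -1.28 to 1.26. That value rests on 1 low cell array, replicate 2 at 6.03, and was 0.76 without it.

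Among the receptors, CSA1 had 6.77 ± 0.79 in ground cells and 8.68 ± 1.31 in ground seedlings (limma, adjusted p = 0.0192), and ADR1-L1 had 7.69 ± 1.56 and 9.53 ± 0.68 (adjusted p = 0.0227, limma). Both were above background on no cell array, and the cell background reached high enough that no fold can be given on the ground. Neither gene was called without replicate 4 of the ground seedlings, nor ADR1-L1 without replicate 1 or replicate 4 of the ground cells. In flight ADR1-L1 was at least 1.12-fold lower in cells, a bound that needs replicate 5 of the flight cells, since without it the mean cell background of 9.99 lies above the seedling mean of 9.74. ZAR1 had 6.77 ± 1.39 in flight cells and 9.58 ± 0.28 in flight seedlings, with no overlap (limma, adjusted p = 0.000515). On the ground the adjusted p was 0.0683 in limma. ZAR1 was above background on 1 cell array in each condition, which in flight was replicate 5. With the cell arrays raised to background the flight cell mean was 9.74, so that no fold can be given. CHS3 had an adjusted p of 0.0401 in limma in flight and 0.103 on the ground, was above background on no cell array, and has no fold either. Its call in flight was lost on leaving out any of 8 single replicates, with adjusted p between 0.0511 and 0.147 in limma.

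LAZ5 was the one receptor measured in ground cells. It lay between 7.84 and 11.70 there (median 10.12) and between 5.47 and 8.50 in ground seedlings (median 8.36), a difference of 2.10 ± 0.72 (limma, adjusted p = 0.0192). Its lowest ground seedling array, replicate 1, stood apart from the others. The difference was 1.62 without it and 1.76 without replicate 5 of the ground cells. LAZ5 was no longer called in either case, nor with quantile normalization or the canister as a fixed block. RPP1, WRR4 and RPS6, TIR receptors for downy mildew, white rust and a bacterial effector, were not measured in any group.

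**Figure D4:**
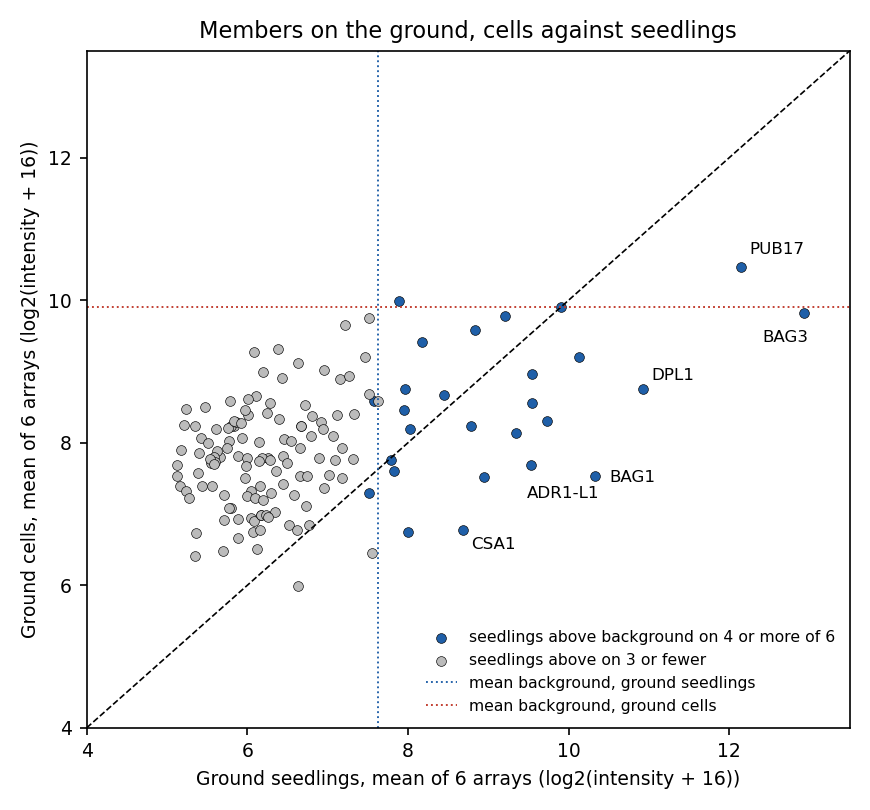
Mean level of each of the 148 members in ground cells (vertical axis) against ground seedlings (horizontal axis), on the log2(intensity + 16) scale, with blue points for members measured in ground seedlings. The dotted lines are the mean background of the groups, 9.90 in cells and 7.62 in seedlings. Nearly all grey points lie under both lines and above the diagonal, and the 6 named members are those called lower in cells.

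Receptor genes of Arabidopsis often stand in rows along a chromosome. With a gap of at most 8 genes between neighbours, 88 members fell into 30 clusters and 60 stood alone. The members lie mostly on chromosome 5 (56) and chromosome 1 (44), with 27 on chromosome 4, 16 on chromosome 3 and 5 on chromosome 2. The largest cluster, of 8 TIR-annotated members from AT1G72840 to AT1G72950, held 7 members lower in flight cells and 6 lower in flight seedlings, with medians of -0.84 and -0.27. None of the 8 was measured in either cell group. AT1G72840, AT1G72850 and AT1G72900 of this cluster were measured in both seedling groups. AT1G72840 had 7.70 ± 0.71 in flight seedlings and 8.45 ± 0.48 on the ground, a difference of -0.75 ± 0.37 (limma, adjusted p = 0.637).

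In the cluster that holds RPP4, SNC1, RPP5 and RLM3, 4 of 6 members were lower in either material. None of the 6 was measured in both seedling groups or in either cell group. The cluster of AT1G17600, CHS1 and AT1G17615 was lower in flight in both materials for all 3 members, with medians of -1.15 in cells and -1.29 in seedlings, and none of them was measured in any group. It was picked from the 30 clusters with their values known. Over all 148 members 91 were lower in flight cells and 82 in flight seedlings. Of the cluster of CSA1, CHS3 and AT5G17970, 0 members were lower in flight cells and 1 in flight seedlings. CHS1 is known for a mutant sensitive to chilling. In the cluster from AT5G45200 to RRS1, which holds the RPS4 and RRS1 pair, 1 of 5 members was lower in flight cells and 2 in flight seedlings. None of the 5 was measured in either cell group. The members of a cluster are often close in sequence, so neighbouring probe sets may share signal.

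**Figure D5:**
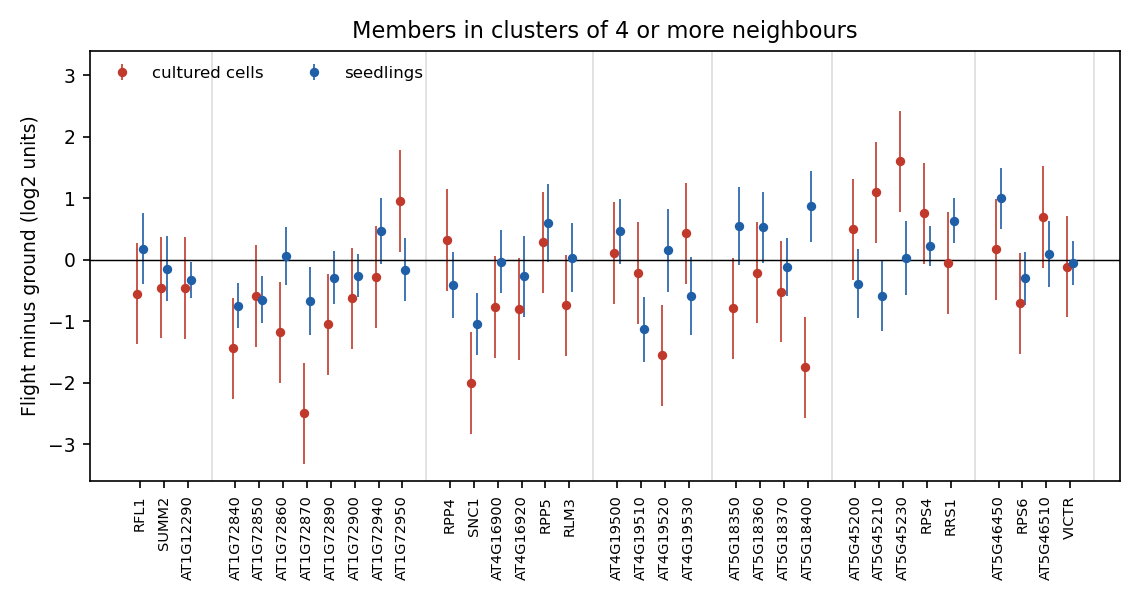
Flight minus ground difference in log2 units for the members of the 7 clusters with 4 or more neighbours, 1 member not drawn, in cells (red) and seedlings (blue), with bars of 1 standard error. In the cluster from AT1G72840 to AT1G72950, 7 of 8 red points and 6 of 8 blue points lie below 0. None of the points was called.

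The genes that receptors work with were better measured. Of 14 listed partners and chaperones 11 had a probe set of their own, all 11 were measured in flight seedlings and 9 in ground seedlings, and none was called for flight in either material. EDS1, the lipase-like partner of TIR receptors, had a flight difference of 0.40 ± 0.44 in seedlings and -0.91 ± 0.82 in cells (limma, adjusted p = 0.808 and 0.955). The smallest p belonged to CRT1 in seedlings (0.83, limma adjusted p = 0.717) and HSP90.2 in cells (1.30, limma adjusted p = 0.928). In either condition 3 partners were called lower in cells, EDS1, SGT1A and SGT1B, of which the SGT1 proteins are co-chaperones of receptor stability. Of all probe sets 10.5% were called lower in cells on the ground and 12.5% in flight. EDS1 had 7.81 ± 0.89 in flight cells and 10.75 ± 0.40 in flight seedlings, and 8.72 ± 1.51 and 10.35 ± 1.04 on the ground (limma, adjusted p = 0.000374 and 0.0401). It was above background on 1 flight and 2 ground cell arrays, and SGT1A and SGT1B on no ground cell array, so these levels in cells are mostly bounds.

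Of 8 regulators of cell death, which include the member BI1, none was called for flight in either material, and all 8 had a lower mean in flight seedlings. The smallest p belonged to ACD6, an ankyrin protein that promotes salicylate-dependent death, which was above background on no array. The metacaspase MC4 was measured in both seedling groups and had 9.49 ± 0.40 in ground cells against 13.33 ± 0.26 in ground seedlings, and 8.69 ± 1.71 against 13.28 ± 0.12 in flight (limma, adjusted p = 8.85e-06 and 2.2e-07), above background on 1 ground and 3 flight cell arrays. Of the 8, 3 were called lower in cells on the ground and 3 in flight, where 10.5% and 12.5% of all probe sets were. One (ACD6) was called higher in flight cells without being above background there, where 32.9% of all probe sets were called higher. Of 11 salicylate genes none was called for flight, and 7 had a lower mean in flight in either material. SARD1, a transcription factor for salicylate synthesis, had the smallest p in cells (-2.06 ± 0.82, limma adjusted p = 0.828) and the marker gene PR5 in seedlings (1.05 ± 0.50, limma adjusted p = 0.62). Between materials, 5 salicylate genes were called higher in ground cells and 4 in flight cells, where 27.6% and 32.9% of all probe sets were. None of the 11 was measured in cells.

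In the authors' deposited tables of flight against ground, the smallest q-value of a member was 0.613 in cells and 0.202 in seedlings. By the p-value of the authors' deposited table, 10 members were lower and 3 higher in cells at the same unadjusted threshold, and 6 lower and 3 higher in seedlings. The member with the smallest p in the authors' deposited table was SNC1 in cells and AT3G25510 in seedlings.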

How the data were processed

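The 24 arrays, 6 in each group, were grouped by their titles. Deposited intensity values came from MAS5, which the submitters' processing notes name together with Affymetrix Expression Console, and the software version is not given in the sources used here. Every array has a mean of 500 after trimming 2% at each end. For every probe set the authors deposited their own comparison as well, with its log2 fold change, p-value and q-value columns per the file headers, and how these were tested is not given in the sources used here.

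Values were analysed as log2(intensity + 16), a scale that draws differences of dim probe sets toward 0. Without the 64 control probe sets of the manufacturer, 22746 were tested with limma 3.58.1 in R 4.3.3 (lmFit and eBayes, two-sided), with Benjamini-Hochberg adjustment over all of them and a threshold of 0.05. The flight comparisons used the 12 arrays of a material, and the other contrasts came from 1 fit of the 4 groups. On simulated seedling arrays with 200 changed probe sets the fit recovered the largest of the planted differences. That does not show that differences as small as those of the members would be found. Cell arrays and the fit of 4 groups were not simulated. Summaries and plots used Python 3.11.15, pandas 2.3.3 and matplotlib 3.10.9.

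Where a group had no array above background the level is only bounded, which is given as "at least N-fold" from the brighter group's mean over the dimmer group's mean with each array raised to background, with no fold where that falls under 1 or where neither group was above background. Fitted differences in counts, medians and figures include such members. The arrays of replicates were checked for duplicates and no 2 of the 276 pairs were identical.

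The members and the gene lists were chosen with earlier results of these data known, so no pattern in them is independent support. Members are named where they were called for flight or for the difference of flight effects, had 1 of the 5 smallest p in a direction of a flight comparison, had 1 of the 5 largest called differences between ground cells and ground seedlings with the brighter group measured, were above background on all 24 arrays, or are receptors of known function. Genes of the partner, cell death and salicylate lists are named where called or where they had the smallest p. One member is counted in totals but not reported singly here. Other names were chosen after their values were seen. Alternatives were the pseudocount, dim probe sets, quantile normalization, the variance prior, array weights, the canister, the replicate block and leaving out each replicate. Gene names come from the array annotation and RefSeq (TAIR10.1), where all 148 members were matched. No sequence or coordinate was used here.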

Additional observations from a re-analysis of the deposited data

Results flagged for a closer look

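In groups of 6 arrays, a lowest or highest array was marked where its gap to the nearest other array, divided by the range of the group, passed Dixon's 95% critical value. This happened in 19 of 272 groups of values tested, and chance alone marks about 1 in 20. In ground seedlings, replicate 1 was the low array for BAG1 at 8.87, CSA1 at 6.13 and LAZ5 at 5.47, replicate 6 was the low array for AT3G04220 at 4.66, and replicate 2 was the high array for AT5G46450 at 6.46. In flight seedlings a single array was low for RRS1 at 7.30, AT5G35450 at 7.16 and BAG2 at 5.32. In ground cells a single array was high for RPM1 at 11.02, RPP4 at 10.17, RPP5 at 9.05 and AT1G69550 at 8.50, and low for BAG4 at 6.03, DAR5 at 7.44 and PUB17 at 7.78. In flight cells a single array was low for AT5G38850 at 5.74 and PUB17 at 7.97. Replicate 5 of the flight cells stood apart in the share of all probe sets above background, at 76.72%, and in the share of members, at 54.05%.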

How the results depend on the processing

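The count of members called for flight against ground, and for the difference of flight effects, was 0 under each alternative run for it. These were the pseudocounts 1 and 64, the filter on dim probe sets, quantile normalization, the trended prior, array weights, the canister as a block, the larger canister alone (flight against ground only), the smaller one (cells only), a threshold of 0.1, 1 fit of 24 arrays (flight against ground only), the authors' q-value (flight against ground only), the replicate block and each replicate left out. The replicate block used positions in the hardware, which gave 0 members called in either material and 64 and 61 between materials, the same counts as without it, though over all probe sets it took the 4 calls for flight in seedlings to 0. Same-numbered flight and ground arrays share a hardware position by their titles. Their deviations correlated between -0.063 and 0.13 in cells and between -0.081 and 0.053 in seedlings. Such low values cannot show that position had no effect, and the main fit did not pair the arrays. Leaving out each replicate moved the median of the members between -0.32 and -0.16 in cells and between -0.15 and -0.08 in seedlings. With 1 fit of 24 arrays the smallest adjusted p of a member in cells was 0.0989 in limma, against 0.705 in the main fit. At an unadjusted p under 0.05 that fit had 4 members higher and 16 lower in cells, where 1341 and 1259 of 22746 probe sets were. In seedlings it had 0 higher and 4 lower, where 226 and 386 were.

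Between materials, 64 members were called on the ground and 61 in flight. The counts were 17 and 10 with probe sets above background on at least 6 arrays, 7 and 7 with at least 12 arrays (chosen after the data were seen), 19 and 18 with quantile normalization, and 12 and 11 with the canister as a block. With each replicate left out they ran from 56 to 65 and from 46 to 63. Members passed the filters on arrays above background mostly through seedlings, whose background was lower. The median of the members, 1.30 and 1.34, was 1.65 and 1.57 with a pseudocount of 1, 1.00 and 0.98 with 64, 0.68 and 0.39 with the filter at 6 arrays, -0.56 and -0.64 with the filter at 12 arrays, and 0.62 and 0.52 with quantile normalization. Of the results for named genes, 642 kept direction and side of the threshold and 13 kept direction alone, those of LAZ5, BAG3, BAG1, DPL1, CSA1 and ADR1-L1 between ground materials, with the canister as a block for each of these 6 genes. The cause was not tested.

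The number of members measured in flight cells, 2, was 1 with the highest control as background and 1 without replicate 5. In ground cells, 4 became 7 with the 90th percentile and 2 with the highest control. Signal over background limits the cells most, where at most 4 members could be measured in a group.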
